A study of Homo sapiens with 8 samples.

Results

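The ErbB receptor family consists of EGFR, ERBB2, ERBB3 and ERBB4, and its expression was followed in CAPAN-2, a human pancreatic adenocarcinoma cell line in long use, after stable knockdown (KD) of ErbB2 or of the mucin MUC4. The members were all probes whose accession is that of one of the 4 genes, which gave 6 of the 41000 probes of the array and 24 of its 43376 spots, for 4 of 17240 gene symbols. In one experiment, 4 ErbB2-KD clones (EV7, EV12, EV9 and EV18), raised with an ErbB2 shRNA in the pGeneClip vector under puromycin, were each set against 1 RNA pool of 4 NT clones that carry the empty vector. In the other, 4 arrays compared RNA labelled Muc4KD, raised by the methods with the retroviral pRetroSuper vector under G418, with 1 RNA pool labelled Mock, 4 clones of the empty vector. All are clonal derivatives of 1 cell line and each pool counts as 1 control sample, so the spread between control clones is in no test. The methods give 4 MUC4-KD clones. The labels do not name them, and do not say whether a clone was used on more than 1 array. These are bulk RNAs, in which fewer cells of a kind and less RNA per cell cannot be told apart.

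ErbB receptors are transmembrane tyrosine kinases that bind ligands of the EGF family, pair with each other and pass the signal to the RAS-MAPK and PI3K-AKT pathways. ErbB2 has no known ligand of its own and acts as the preferred partner of the others, while ErbB3 has a weak kinase and signals mainly through PI3K after pairing. MUC4 is a large transmembrane mucin with EGF-like domains that can form a complex with ErbB2, and EGFR and ErbB2 are both known to be expressed in carcinomas of the pancreatic duct.

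EGFR was read by 1 probe (A_23_P215790, NM_005228) printed in 10 spots per array. ERBB2 had a probe of 10 spots (A_23_P89249) and a dim probe of 1 spot (A_24_P284420), both listed under NM_001005862. ERBB3 had 1 probe of 1 spot (A_23_P349416, NM_001982), and ERBB4 had 2 of 1 spot each (A_32_P183765 and A_23_P423853, NM_005235). EGFR, ERBB3 and the brighter ERBB2 probe were well above background in both channels of all 8 arrays, so 3 of the 4 genes and 4 of the 6 probes were tested in each experiment. Values are log2 ratios of the labelled knockdown over its labelled control, and a call is an adjusted p under 0.05 over all probes tested (limma, Benjamini-Hochberg).

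The share of probes well above background was 62.2% to 74.2% per channel in the first experiment and 56.7% to 67.3% in the other, with median spot signals of 100 to 593 and of 100 to 200 and no saturated spot. Of 8 epithelial and ductal markers, 7 (EPCAM, CDH1, KRT7, KRT8, KRT18, KRT19 and CLDN4) were well above background in all 16 channels, against 3 of 7 mesenchymal, 2 of 6 leukocyte, 0 of 4 endothelial, 0 of 4 acinar and 1 of 4 endocrine markers on the array. COL1A2, PDGFRB, PNLIP, CTRB1 and GCG were well above background in none. Of the markers limma called KRT19 (1.02, adjusted p = 0.00585) and ACTA2 (0.57, 0.0469) higher in MUC4-KD as labelled, and none in ErbB2-KD, where 7 of 8 epithelial markers were above 0 (median 0.58, 3 at an unadjusted p under 0.05 and 1 by the methods' t-test) and CD68 and CD14, the leukocyte markers tested, had means of 0.75 and 0.55 (limma adjusted p = 0.176 and 0.224). The part of these markers in the receptor values was not tested. The targeted MUC4 went against its label. Its probe A_24_P208825 read 1.71, 2.34, 2.21 and 1.08 on MUC4-KD arrays 1 to 4, higher in the RNA labelled MUC4-KD on all of them (limma adjusted p = 0.00804), and the direction as labelled is the opposite of the one in the study's gene list. Its probe A_24_P239183 was also called higher (mean 1.34, limma adjusted p = 0.0355), and the other 2 MUC4 probes, at 0.41 and 0.27, were not called. The one at 0.27 was the brightest MUC4 probe. On array 4 these last 3 probes stood near 0, at 0.10, -0.04 and -0.05. The median SD of a probe's normalised level over 4 arrays was 0.168 in the NT pool against 0.350 in the ErbB2-KD clones, and 0.252 in the RNA labelled Mock against 0.152 in the RNA labelled MUC4-KD (23081 probes). Whether the MUC4-KD labels are exchanged was not tested, and every ratio of this experiment is given as labelled.

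Among the receptors, EGFR was the only one called in either experiment, and it was higher in the RNA labelled MUC4-KD. None of the 4 tested probes was called in ErbB2-KD, where limma called 0.549% of all 23869 probes higher and 0.884% lower. By limma 2 of the 4 had an unadjusted p under 0.05, and by the methods' t-test 2 did, none of them after adjustment. The 2 probes were not the same. By limma they were EGFR and the brighter ERBB2 probe. By the other test they were the 2 ERBB2 probes, whose means had opposite signs (-0.40 for the brighter and 0.04 for the dim one), and EGFR was not among them. In the MUC4-KD experiment 1 of the 4 was called, where limma called 12.0% of 25047 probes higher and 8.48% lower, so a call there was not rare. The plot of each probe on each array shows all 6 probes.

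**Figure D1:**
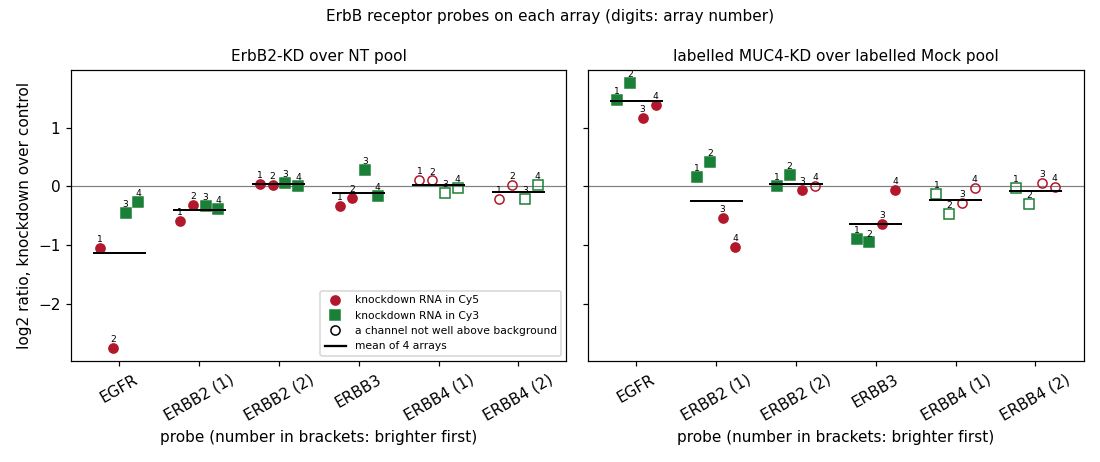
Log2 ratio of the knockdown over its control (vertical axis) for the 6 ErbB receptor probes on each of 4 ErbB2-KD arrays (left) and 4 MUC4-KD arrays as labelled (right). Circles and squares mark arrays with the knockdown in Cy5 and in Cy3, open symbols a channel not well above background, and lines the mean. EGFR spans 1.17 to 1.76 in MUC4-KD and -2.75 to -0.27 in ErbB2-KD, and ERBB2 (1) splits by dye on the MUC4-KD arrays.

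EGFR, the founding member of the family and the receptor of EGF, TGFA and AREG, had log2 ratios of 1.48, 1.76, 1.17 and 1.39 on MUC4-KD arrays 1 to 4. All 4 arrays were above 0, the mean was 1.45 ± 0.25 (SD, n = 4; 2.73-fold), and the 95% interval ran from 1.13 to 1.77 (limma adjusted p = 0.00404). The call was lost when arrays were centred on the median in place of loess (1.58, limma adjusted p = 0.452, a setting that called 1 probe of the whole array) and by the methods' t-test (adjusted p = 0.0688), and held with any 1 array left out.

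In ErbB2-KD, EGFR read -1.04 in EV7, -2.75 in EV12, -0.45 in EV9 and -0.27 in EV18. All 4 clones were below the NT pool, but their spread was wide: the mean was -1.13 ± 1.13 (SD, n = 4), and limma gave an unadjusted p of 0.0330 and an adjusted p of 0.230. EV12 carried much of the mean, which was -0.59 without it. The 2 clones in Cy5 (mean -1.90) lay below the 2 in Cy3 (mean -0.36), and a dye difference of that size was exceeded by few probes, since 99.4% of those tested had a smaller one. Each clone was hybridised with 1 dye only, so clone and dye cannot be told apart. EV12 was also the only ErbB2-KD array on slide 2, with the highest median spot signals (593 and 248 in NT). Its clone and its array cannot be told apart.

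The 10 spots of EGFR agreed closely within an array. Their median SD was 0.04 in either experiment, against an SD between arrays of 1.13 in ErbB2-KD, larger than that of 98.9% of probes tested. On every ErbB2-KD array all 10 spots were below 0, and on every MUC4-KD array all 10 were above 0.

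**Figure D2:**
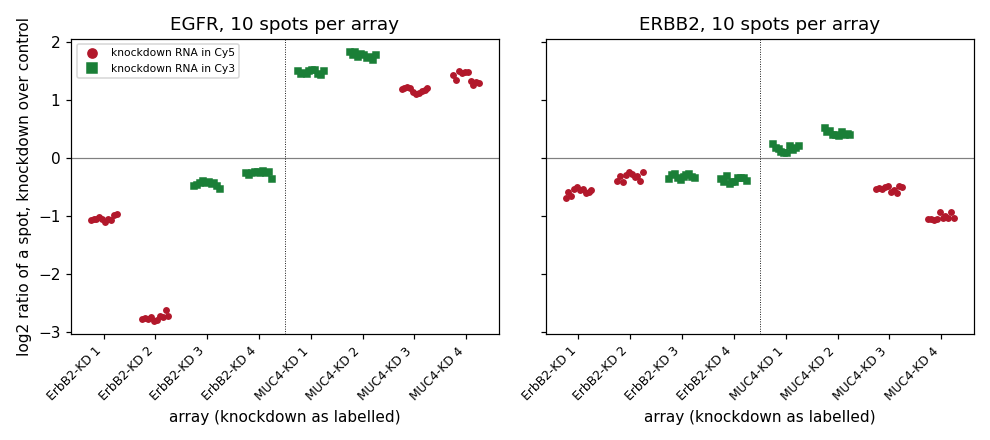
Log2 ratio of each of the 10 spots of the EGFR probe (left) and of the brighter ERBB2 probe (right) on the 8 arrays, with circles for the knockdown in Cy5 and squares in Cy3. The spots of an array cluster, with a median SD of 0.04 for EGFR and 0.05 for ERBB2. ERBB2 spots lie below 0 on all ErbB2-KD arrays, above 0 on MUC4-KD arrays 1 and 2, and below 0 on arrays 3 and 4.

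The EGFR ratios of the experiments did not overlap and differed by 2.58 as labelled (95% interval 1.50 to 3.66, limma adjusted p = 0.0149), where 9.91% of 25835 probes were called for this difference in either direction. Within slides 1, 2 and 3, all with arrays of both experiments, the difference was 2.51, 4.13 (EV12 against MUC4-KD array 4) and 1.59. It lost its call with median centring (adjusted p = 0.108), by the methods' t-test (0.0768), without MUC4-KD array 3 (0.0509 by limma) and with MUC4-KD arrays 1 and 3 averaged and 2 and 4 averaged (0.0822 by limma), which allows for a clone used on more than 1 array. With the MUC4-KD labels exchanged EGFR would read -1.45 beside -1.13 in ErbB2-KD, and the difference would be -0.32 (95% interval -1.40 to 0.76, limma adjusted p = 0.668, where 17.2% of probes were called), so the call rests on the labels. That of ERBB3 would be 0.74 (limma adjusted p = 0.0554) and that of ERBB2 0.65 (0.153). Of 11656 genes tested in both experiments, 405 (3.47%) were, like EGFR, lower on 4 of 4 ErbB2-KD arrays and higher on 4 of 4 MUC4-KD arrays as labelled, and 34 of these had a larger difference. Taken singly, 14.9% of these genes were lower on 4 of 4 ErbB2-KD arrays and 25.7% higher on 4 of 4 MUC4-KD arrays. With the labels exchanged the 405 would be lower on all arrays of both experiments.

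The normalised level of EGFR, on a log2 scale of signal, was highest in the NT pool at 12.68 ± 0.19 and lowest in the RNA labelled Mock at 10.31 ± 0.23 (SD, n = 4 arrays each). The RNA labelled MUC4-KD was at 11.76 ± 0.12 and the ErbB2-KD clones at 11.55 ± 0.94. As labelled, the controls of the experiments stood 2.37 apart, a gap larger than that of 99.5% of the 23081 probes tested in both, while the knockdowns stood only -0.21 apart (ErbB2-KD minus MUC4-KD, larger than 36.9%). With the MUC4-KD labels exchanged the controls would stand 0.92 apart (larger than 91.3%) and the knockdowns 1.24 (larger than 97%). Levels of the ErbB2-KD clones ran from 10.21 to 12.31 and spanned those of the RNA labelled MUC4-KD, from 11.60 to 11.89. The neighbours MUC4-KD and ErbB2-KD do not differ beyond their spread, and Mock, at most at 10.51, overlaps only with EV12. Since each control is 1 pool, no test was made between them.

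The raw spot signals are those of the same channels, as labelled, and are not adjusted for the brightness of an array. For example, the median spot signal was 248 in NT on ErbB2-KD array 2 and 100 in Mock on MUC4-KD array 4. With the pool in Cy5, EGFR gave 7696 and 9147 in NT (ErbB2-KD arrays 3 and 4) and 2064 and 1598 in Mock (MUC4-KD arrays 1 and 2). With the pool in Cy3 it gave 4318 and 4863 in NT and 1286 and 550.5 in Mock. The RNA labelled MUC4-KD, the control if the labels are exchanged, gave 4048 and 4187 in Cy5 and 2334 and 2180 in Cy3, between Mock and NT. The brighter ERBB2 probe gave 7550 and 8336 in NT and 9222 and 8430 in Mock in Cy5 on the same arrays, with no such gap as labelled.

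**Figure D3:**
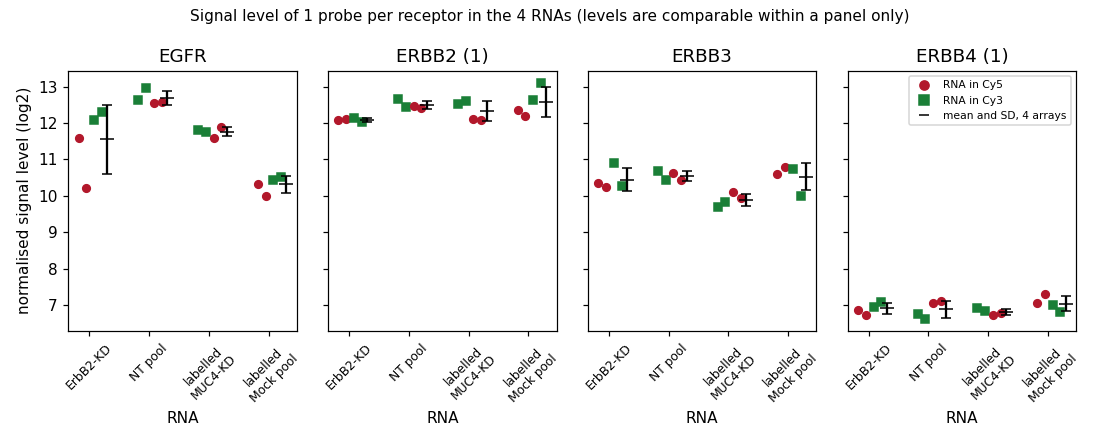
Normalised signal level (log2, vertical axis) of 1 probe of each receptor in the 4 RNAs, with 1 point per array (circle Cy5, square Cy3) and the mean with its SD. EGFR is at 12.68 in the NT pool and 10.31 in the labelled Mock pool, ERBB2 at 12.09 to 12.57 and ERBB3 at 9.89 to 10.55 in all 4 RNAs, and ERBB4 at 6.81 to 7.04, mostly not well above background.

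ERBB2, the target of the shRNA in ErbB2-KD and the check of its labels, read -0.58 in EV7, -0.32 in EV12, -0.33 in EV9 and -0.38 in EV18 with its brighter probe. All 4 clones, and all 10 spots on each array, lay below the NT pool, at a mean of -0.40 ± 0.12 (SD, n = 4; 1.32-fold lower; 95% interval -0.67 to -0.13). The direction is that of the label, but the value did not pass (limma unadjusted p = 0.0105, adjusted p = 0.145). The spread was small, since only 11% of tested probes had a smaller SD, and the dyes differed by -0.10. Where the shRNA site lies relative to the probes was not checked.

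The same probe behaved otherwise on the MUC4-KD arrays, where it read 0.16 and 0.42 on arrays 1 and 2, with the knockdown in Cy3, and -0.53 and -1.02 on arrays 3 and 4, with it in Cy5. All 10 spots of an array had the sign of its mean, so the arrays split in direction by dye. The mean of -0.24 ± 0.66 (SD, n = 4) did not pass (limma adjusted p = 0.498, 95% interval -0.85 to 0.37), and without array 4 it was 0.016. The dye difference of -1.07 was larger than that of 95.7% of tested probes, and this interval leaves room for a change as large as in ErbB2-KD. The experiments differed by 0.16 (limma adjusted p = 0.755), and by 0.88, -0.70 and 0.19 within the slides.

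The second ERBB2 probe was dim, with raw signals of 56 to 137 on all arrays but ErbB2-KD array 2. There it gave 673 in the knockdown channel and 268 in the NT channel. It read 0.04, 0.03, 0.06 and 0.01 in ErbB2-KD and 0.01, 0.20, -0.06 and 0.01 on the MUC4-KD arrays. Its means of 0.04 and 0.04 did not pass (limma adjusted p = 0.897 and 0.814), it was well above background in the labelled Mock channel on 3 of 4 arrays, and it did not follow the brighter probe in either experiment. Both carry 1 accession, but with signals this dim the second probe cannot show whether there is a disagreement within the gene.

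ERBB3, the partner of ErbB2 and receptor of the neuregulins, read -0.89, -0.95, -0.64 and -0.05 on MUC4-KD arrays 1 to 4. All 4 were below 0 and array 4 stood near it, at a mean of -0.64 ± 0.41 (SD, n = 4; 1.55-fold lower). The value missed the threshold narrowly (limma unadjusted p = 0.0105, adjusted p = 0.0506, 95% interval -1.06 to -0.21). It passed under 6 of 12 other settings and in 1 of 4 fits with an array left out, among them the log ratios of the scanner software (-0.76, limma adjusted p = 0.0235), a dye term (0.0292) and the data without array 4 (-0.83, 0.00607). It did not pass with median centring (0.852), by the methods' t-test (0.180), or without array 1 (0.191), 2 (0.162) or 3 (0.192).

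In ErbB2-KD, ERBB3 read -0.33 in EV7, -0.20 in EV12, 0.28 in EV9 and -0.16 in EV18. The clones lay on both sides of 0, the mean was -0.10 ± 0.27 (SD, n = 4), and the 95% interval of -0.44 to 0.23 leaves room for a modest change in either direction (limma adjusted p = 0.759). The difference between the experiments, -0.53 as labelled, did not pass (limma adjusted p = 0.166), and was -0.93, 0.15 and -0.60 within the slides. The normalised levels were 10.45 ± 0.31 in ErbB2-KD, 10.55 ± 0.13 in NT, 9.89 ± 0.17 in the RNA labelled MUC4-KD and 10.52 ± 0.37 in the RNA labelled Mock (SD, n = 4 each). The labelled MUC4-KD RNA had the lowest mean, but its levels, from 9.695 to 10.1, overlapped those of the labelled Mock, from 9.985 to 10.78. The other 3 RNAs did not differ beyond their spread.

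ERBB4, the other neuregulin receptor, was not well above background with either probe in any knockdown or NT channel. The one exception was the labelled Mock channel of MUC4-KD array 2 for A_32_P183765. Raw signals were 28 to 209, no test was made and no fold is given. This leaves the level of ERBB4 mRNA undetermined below the background of these spots.

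By the root mean square difference of the log2 ratios over 8 arrays, among 11655 other genes tested in both experiments, the genes most like EGFR were BCL3 (0.34), GPRC5B (0.40) and RDM1 (0.51), against a median of 1.54 over all genes. BCL3, for example, had means of -1.25 in ErbB2-KD and 1.85 as labelled in MUC4-KD. Among those most like ERBB2 were DCXR (0.21) and KAT2A (0.22), against a median of 0.71. Most like ERBB3 were XPC (0.11), ICA1L (0.15) and NFX1 (0.16), against 0.69. For ERBB2 and ERBB3 the ratios were small on most arrays, and likeness then needs only small ratios.

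Genes around the receptors were counted by their brightest probe. Over all genes limma called 0.750% of 12006 higher and 1.19% lower in ErbB2-KD, and 12.2% of 12274 higher and 10.9% lower in MUC4-KD as labelled, with medians of -0.003 and -0.01. Outside the receptors, 5 genes of the pathway lists below were called in ErbB2-KD and 25 in MUC4-KD. These counts rest on few arrays: in ErbB2-KD it was 0 without array 1, 3 or 4 and 6 without array 2, and in MUC4-KD 1 without array 3, 6 without array 1, 8 without array 2 and 53 without array 4. ZNF217 in MUC4-KD was the 1 gene of these still called with each array left out in turn. No list gene was called in either experiment with median centring, and in ErbB2-KD none by the methods' t-test.

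In the ligands of the EGF family, AREG and BTC were lower in the RNA labelled MUC4-KD. Of 11 ligand genes, 10 were on the array, 5 passed the filter in ErbB2-KD and 6 did so in MUC4-KD, while EGF, EREG, NRG2 and NRG4 were tested in neither. In the RNA labelled MUC4-KD limma called 2 lower and none higher, with a median of -0.52. In ErbB2-KD it called none, with a median of 0.20, although 2 had an unadjusted p under 0.05 (1 by the methods' t-test).

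AREG, the gene of amphiregulin, a ligand of EGFR, read -1.78, -0.50, -2.02 and -0.39 on MUC4-KD arrays 1 to 4 (mean -1.17 ± 0.85, SD, n = 4, limma adjusted p = 0.0476). In ErbB2-KD it read 2.02 in EV7, 0.02 in EV12, 2.21 in EV9 and 2.09 in EV18 (mean 1.58 ± 1.04, SD, n = 4, limma adjusted p = 0.117). The difference between the experiments was -2.76 as labelled and passed (limma adjusted p = 0.0198, where 9.91% of 25835 probes were called). It passed in only 4 of 8 fits with 1 array left out and not with the MUC4-KD arrays averaged in pairs (0.0795 by limma). With the MUC4-KD labels exchanged AREG would differ by -0.41 (limma adjusted p = 0.632) and BTC by 1.32 (0.0235). EV12, the clone with the lowest EGFR, was the one with AREG near 0.

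BTC, the gene of betacellulin, which binds EGFR and ErbB4, read -1.94, -1.52, -1.63 and -0.42 on MUC4-KD arrays 1 to 4. It was below 0 on all 4 (mean -1.38 ± 0.66, SD, n = 4, limma adjusted p = 0.0210), at 0.06 ± 0.28 in ErbB2-KD, and its difference of -1.43 passed (limma adjusted p = 0.0259; 3 of 8 fits with 1 array left out). HBEGF, another ligand of EGFR and ErbB4, had a mean of 0.88 in ErbB2-KD and was above 0 in all 4 clones (limma adjusted p = 0.0776), and a mean of -0.52 as labelled in MUC4-KD (0.243). NRG1, the neuregulin that binds ErbB3 and ErbB4, read 1.50, 0.18, 1.43 and 0.05 on MUC4-KD arrays 1 to 4 (mean 0.79, limma adjusted p = 0.0980) and -0.26 on average in ErbB2-KD. AREG and NRG1 split the MUC4-KD arrays into 1 with 3 and 2 with 4, arrays of opposite dye. Over all probes the deviations of these pairs from the mean correlated at 0.04 and -0.49, and those of the other pairs at -0.768 to 0.133. Such deviations sum to 0 over the 4 arrays, so unrelated arrays would not be at 0. Whether the pairs share a clone was not tested. With each pair averaged, BTC was still called (limma adjusted p = 0.0310) and AREG was not (0.0848).

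**Figure D4:**
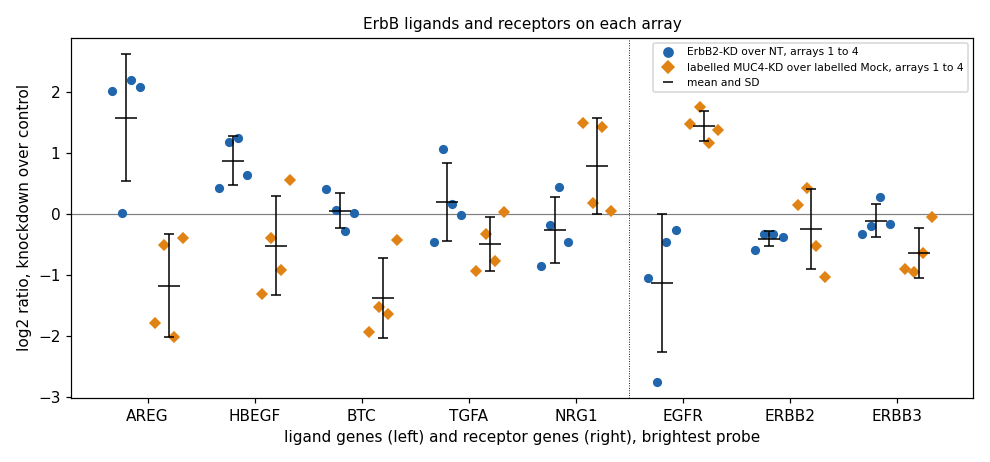
Log2 ratio of 5 ErbB ligand genes and 3 receptor genes (brightest probe) on each ErbB2-KD array (circles) and each MUC4-KD array as labelled (diamonds), with means and SDs over 4 arrays. AREG lies at 0.02 to 2.21 in ErbB2-KD and -2.02 to -0.39 in MUC4-KD, as labelled, the reverse order of EGFR at -2.75 to -0.27 and 1.17 to 1.76.

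Adaptors and docking proteins link the receptors to their pathways. Of 19 on the array 16 were tested in each experiment, with medians of -0.01 in ErbB2-KD and 0.06 in MUC4-KD. In ErbB2-KD 1 was called higher and 1 lower, namely RASA1, a RAS GTPase activating protein (1.06, limma adjusted p = 0.0494), and SHC3, an SHC adaptor (-0.95, 0.0281). In MUC4-KD as labelled 3 were called higher and 1 lower. RASA1 was again higher (1.24) beside the SH2 and SH3 adaptor NCK1 (1.01, both limma adjusted p = 0.00534) and GAB2 (0.42), which sat at the threshold, and SHC1 was lower (-0.50, 0.0472). RASA1 was above 0 on all 8 arrays as labelled, from 0.65 to 1.56 in ErbB2-KD and from 1.03 to 1.48 in MUC4-KD. With the MUC4-KD labels exchanged it would be below 0 on every MUC4-KD array.

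Negative regulators and trafficking proteins of the receptors had 4 called higher and 1 lower of 26 tested in MUC4-KD as labelled, with a median of 0.13. LRIG1, a transmembrane protein that promotes breakdown of ErbB receptors, read 3.16, 3.03, 3.11 and 0.60 on arrays 1 to 4 (mean 2.47, limma adjusted p = 0.0205), array 4 standing far below the others. The ubiquitin ligases CBL (0.86, limma adjusted p = 0.00868) and CBLB (0.80, 0.0325), which tag EGFR for degradation, and the phosphatase PTPRJ (1.02, 0.00867) were also higher. RNF41, a ubiquitin ligase of ErbB3, was lower (-0.78, 0.0259). In ErbB2-KD none of 23 was called and 19 were positive (median 0.13), with 7 at an unadjusted p under 0.05 by limma and 5 by the methods' t-test. LRIG1 there had a mean of 1.02 (limma adjusted p = 0.142) and was above 0 in all 4 clones.

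Of the PI3K-AKT core, all 14 genes were tested in each experiment, with medians of 0.04 in ErbB2-KD and 0.03 in MUC4-KD. PIK3CA, the catalytic subunit p110 alpha, read -0.65, -0.75, -0.86 and -0.63 in EV7, EV12, EV9 and EV18 and was the 1 gene called there (limma adjusted p = 0.0424). On MUC4-KD arrays 1 to 4 it read 0.42, 0.55, 0.51 and 0.78 (adjusted p = 0.0254). The groups lay on opposite sides of 0 as labelled, a pattern shared in this direction by 3.47% of genes tested in both experiments. Their difference of 1.29 passed (limma adjusted p = 0.00262), also with any 1 array left out. With the MUC4-KD labels exchanged it would be 0.16 (limma adjusted p = 0.455). In MUC4-KD 4 genes were called higher, among them PIK3CA and the catalytic subunit PIK3CD (1.00), and 2 lower, the regulatory subunit PIK3R3 (-1.37) and the mTOR partner RPTOR (-0.85).

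The RAS-MAPK core had 0 of 12 called in ErbB2-KD (median 0.01, with 1 at an unadjusted p under 0.05 by limma and 1 by the methods' t-test) and 1 of 13 higher in MUC4-KD as labelled, NRAS at 0.93 (limma adjusted p = 0.0104; list median 0.18). Of the JNK core none of 8 was called in ErbB2-KD and none of 7 in MUC4-KD by limma, with medians of -0.004 and -0.04. At an unadjusted p under 0.05 limma had 0 and 1 of them and the methods' t-test 0 in each. Of 11 SRC and JAK kinases with STAT3 and STAT5, limma called none in ErbB2-KD (3 at an unadjusted p under 0.05, 1 by the methods' t-test; median -0.19) and 3 in MUC4-KD (median -0.02). PTK2, focal adhesion kinase (0.87), and the SRC family kinase YES1 (0.86) were higher as labelled and FYN (-0.49) was lower.

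Of transcription factors reported to act on ErbB genes, 3 of 16 were called in MUC4-KD, all higher as labelled (median 0.19): ZNF217 at 1.51 (limma adjusted p = 0.00334), MYB at 1.33 (0.00471) and FOXO1 at 0.84 (0.0193). In ErbB2-KD limma called none of 15 (median 0.12, with 2 at an unadjusted p under 0.05 and 1 by the methods' t-test).

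The neighbours of ERBB2 on chromosome 17, which are often gained with it in tumours, gave no call among 11 tested in either experiment by limma. At an unadjusted p under 0.05 there were 1 in ErbB2-KD and 4 in MUC4-KD, or 1 and 2 by the methods' t-test. Their medians were -0.10 and -0.29, with 1 and 2 genes above 0. In ErbB2-KD, MIEN1 had a mean of -0.57 (limma adjusted p = 0.136) beside the -0.40 of ERBB2. GRB7, an adaptor that binds ErbB2, had means of -0.11 and 0.74 (adjusted p = 0.928 and 0.0731).

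Of other receptor tyrosine kinases, AXL was called higher in ErbB2-KD. It read 0.83, 1.53, 1.73 and 1.89 in EV7, EV12, EV9 and EV18 (limma adjusted p = 0.0326) and 0.07 on average in MUC4-KD. DDR1, a collagen receptor, was called lower in ErbB2-KD (-0.83, limma adjusted p = 0.0397) and higher in MUC4-KD as labelled (0.63, 0.0242), and its difference of 1.45 passed (0.00262), but would be 0.20 with the labels exchanged (0.411). These were the 2 called of 10 tested in ErbB2-KD and the 1 of 11 in MUC4-KD, with list medians of -0.23 and 0.07. Neither AXL nor DDR1 was called in ErbB2-KD by limma with any 1 array left out. Of the transmembrane mucins MUC1 and MUC4 were tested, and limma called neither by its brightest probe (at an unadjusted p under 0.05, both in ErbB2-KD but 0 in MUC4-KD, and 0 in each by the methods' t-test). MUC1 had a mean of -0.86 in ErbB2-KD (limma adjusted p = 0.144). The 4 MUC4 probes split in direction there, with means of 0.52 and 0.36 against -0.996 and -0.52, none of them called.

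**Figure D5:**
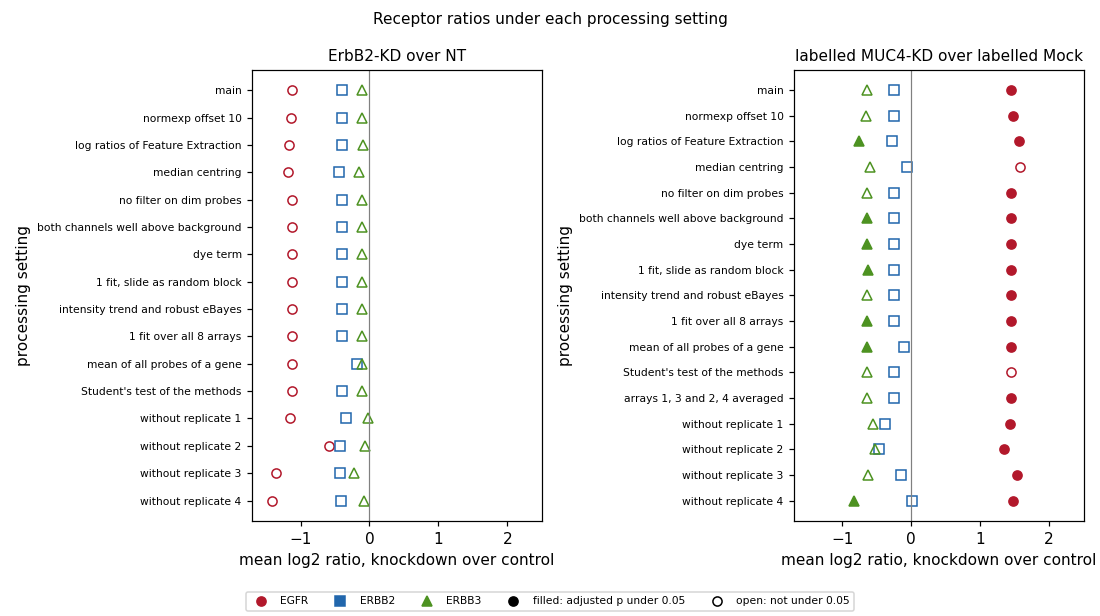
Mean log2 ratio (horizontal axis) of EGFR (circles), ERBB2 (squares) and ERBB3 (triangles) under each processing setting and with each array left out, filled where the adjusted p is under 0.05. EGFR is called in MUC4-KD as labelled under all settings shown but median centring and the methods' t-test, ERBB3 crosses the threshold between settings, and in ErbB2-KD no receptor is called.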

How the data were processed

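RNA of CAPAN-2 derivatives was hybridised to 8 two-colour Agilent human 44K arrays, 4 per experiment, with the dyes turned on 2 of each 4. The authors scanned them with Feature Extraction (10.5.1.1 per the file headers), and deposited median spot intensity, local background and a log10 ratio of red over green. The deposited series table holds the same log10 ratios turned to knockdown over control, within 5e-06, with a median of 0 per array.

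From the intensity values, log2 ratios were computed with limma 3.58.1 in R 4.3.3: normexp (offset 50, on median signals since the files hold no mean), loess within arrays, outlier-flagged spots left out and spots averaged per probe. Groups, dyes and direction follow the labels. Testing required a signal well above background throughout an experiment's 4 arrays, in either the knockdown or the control channel. Each experiment was tested against 0 (lmFit and eBayes) and the difference on all 8 arrays, with Benjamini-Hochberg adjustment over all probes tested. The methods' t-test is the Student's test that the methods name for statistics in general. It was run here on the same log2 ratios with the same adjustment. For the arrays the methods name GeneSpring and asymptotic p-values, which were not repeated. The control pool counts as 1 sample, so p-values cover the spread between arrays. With 4 arrays, exact sign flips give no p under 0.125, so they were not used. Levels are single-channel log2 signals after Aquantile normalisation over all arrays.

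The value of a gene is that of its probe with the highest mean level. Probes were named through accessions (25398 of 41000 had a symbol). The receptors are named with all their probes, list genes where called in an experiment, and HBEGF, NRG1, MIEN1, GRB7, LRIG1 in ErbB2-KD and MUC1 were named after their values were seen. Some genes of the lists are counted but not reported by name here. Members and lists were chosen with earlier results of these data known. Only the limma fit was tested on simulated data. Of 100 changes of 1 on the log2 scale it called 47 in ErbB2-KD, 53 in MUC4-KD and 39 in the difference.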

Additional observations from a re-analysis of the deposited data

Results flagged for a closer look

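The EGFR ratio differed between the experiments by 2.58 on the log2 scale, at 1.45 in MUC4-KD as labelled and -1.13 in ErbB2-KD. It is listed since the difference itself passed its test over 8 arrays (limma adjusted p = 0.0149), but with the MUC4-KD labels exchanged it would be -0.32 (0.668). No receptor value within an experiment lay far enough from the other 3 arrays to be listed as an outlier.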

How the results depend on the processing

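In ErbB2-KD no receptor was called under any of 11 other settings or with 1 array left out, and EGFR, ERBB2 and ERBB3 kept their direction. For MUC4-KD as labelled, ERBB3 was called with the Feature Extraction ratios (-0.76), and at -0.64 with both channels above background, a dye term, the mean of a gene's probes or 1 fit over 8 arrays, and at -0.63 when that fit had slide as a random block, a setting chosen after seeing the data. Under each of these 2 receptor probes were called in place of 1. With median centring EGFR (1.58) and by the methods' t-test EGFR (1.45) lost the call, leaving 0. With 1 array left out, the called probes were 1 to 2, EGFR was 1.35 to 1.54, ERBB3 -0.83 to -0.53 and ERBB2 -0.47 to 0.016. The EGFR difference lost its call with median centring (2.77), by the methods' t-test (2.58) and with MUC4-KD arrays averaged in pairs (2.58), leaving 0 receptor probes. With 1 array left out it was 2.04 to 2.86, with 0 to 2 probes called, the ERBB3 difference -0.73 to -0.40 and the ERBB2 difference -0.064 to 0.42. The dim ERBB2 probe changed sign with the Feature Extraction ratios in ErbB2-KD (-0.025), in the difference with median centring (-0.095), and with 1 array left out (-0.014 to 0.070 in MUC4-KD, -0.051 to 0.033 in the difference).

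Replicate numbers did not pair the arrays (correlations of deviations -0.231 to -0.0379). With the replicate block the EGFR difference stayed at 2.58 but was not called (limma adjusted p = 0.0567), 0 receptor probes, 5 list genes and 584 of all probes were called, and with the block and a dye term EGFR was called. Slide as a random block could not be fitted in 4 arrays, where 1 pair shares a slide. It changed no receptor call in the difference.

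Of all probes, 342 were called in ErbB2-KD, 5131 in MUC4-KD and 2559 in the difference. Median centring gave 31, 1 and 117, the methods' t-test 0, 106 and 546, and no filter on dim probes 50, 2930 and 1734. An intensity trend gave 0 in ErbB2-KD and 2754 in MUC4-KD, a dye term 190 in ErbB2-KD, 1 fit over 8 arrays 1121 there (1095 with the slide block), the Feature Extraction ratios 4076 in the difference and averaged pairs 568. The mean of a gene's probes gave 2979 genes in MUC4-KD and 1450 in the difference. List genes called were 5, 25 and 24, against 0, 1 and 9 by the methods' t-test and 0 in all with median centring. In ErbB2-KD they were also 0 with no filter or an intensity trend and 2 with a dye term, and in the difference 14 with no filter and 6 with averaged pairs. With 1 array left out the counts were 0 to 477, 155 to 9622 and 634 to 5189. The MUC4-KD labels exchanged, a choice made after seeing the data, gave 4433 in the difference. The cause of the changes was not tested. The signal over background limits ERBB4 and the dim ERBB2 probe.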
